A study of Mus musculus with 246 samples.

Results

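Oxytocin and vasopressin are sister neuropeptides, and the 4 genes described here encode the peptides (Oxt and Avp) and their main receptors in the forebrain (Oxtr and Avpr1a). The genes were chosen by name, with earlier results of these data known, and are 4 of 56691 gene IDs in a table of estimated counts. Each library came from 1 brain region of 1 mouse, with 41 mice and 6 libraries per mouse.

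The mice were male offspring of outbred CD1 parents, killed as adults. Ctrl_Veh pups were reared with standard nesting material by dams given an empty slow-release gel, ELA_Veh pups met early life adversity (limited bedding and nesting in the first postnatal days) under dams given the same empty gel, and ELA_SAFit2 pups met that adversity under dams whose gel held SAFit2, a selective inhibitor of the stress-related chaperone FKBP51 that reached the pups through milk. There was no control group with SAFit2, and no female. In the set without social interaction each condition had 7 mice; in the set with social interaction, which met an unfamiliar mouse for 10 min, there were 6 Ctrl_Veh, 7 ELA_Veh and 7 ELA_SAFit2 mice. Punches of both hemispheres were pooled for each region. The regions were the dorsomedial thalamus (DMT), the ventral hippocampus (vHipp), the nucleus accumbens (Nacc), the medial prefrontal cortex (mPFC), the basolateral amygdala (BLA) and the anterior cingulate cortex (ACC).

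Oxt and Avp are transcribed mainly in large neurons of the paraventricular and supraoptic nuclei of the hypothalamus, and Avp also in scattered neurons of the extended amygdala. The cells ship the peptides along axons to the pituitary and to forebrain targets, so a target region can receive peptide while holding little of its mRNA. OXTR and AVPR1A are Gq-coupled receptors that raise intracellular calcium, and in rodents they are studied for social recognition, affiliation and the response to stress. Both peptides are cut from a precursor by prohormone convertases and amidated before release.

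The peptide genes are neighbours that lie on opposite strands of mouse chromosome 2, and their levels are set side by side below. All 4 members had an entry in the RefSeq promoter table of build GRCm38.p6, which is not the build the authors used. The 250 bases before the start of Oxt (chr2:130575919-130576168, plus strand) and of Avp (chr2:130582589-130582838, minus strand) are shown 5′ to 3′ because they are the upstream sequences of the peptide genes whose few high libraries the results turn on. Capitals mark matches to a searched motif.
Oxt: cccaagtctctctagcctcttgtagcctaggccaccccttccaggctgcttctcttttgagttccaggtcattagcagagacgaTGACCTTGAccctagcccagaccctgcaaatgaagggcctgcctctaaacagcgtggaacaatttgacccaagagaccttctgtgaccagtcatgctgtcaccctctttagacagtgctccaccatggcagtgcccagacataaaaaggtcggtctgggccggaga
Avp: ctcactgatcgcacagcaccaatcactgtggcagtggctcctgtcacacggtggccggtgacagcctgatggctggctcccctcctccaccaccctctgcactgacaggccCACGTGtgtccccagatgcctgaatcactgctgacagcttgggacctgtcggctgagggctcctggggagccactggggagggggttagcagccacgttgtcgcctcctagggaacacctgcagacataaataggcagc
The capitals of Oxt hold the reverse complement of TCAAGGTCA, an extended nuclear receptor half-site, which 0.424% of 32817 promoters held on either strand. The capitals of Avp hold the E-box CACGTG, which 7.15% of promoters held, the promoter of Oxtr among them. TGACGTCA, a cyclic AMP response element held by 1.79% of promoters, and the glucocorticoid response element, held by 0.00914%, had no match in the windows (250 bases before to 50 after the start) of these 4 genes. The motifs searched do not overlap one another in these windows, and a match is a run of letters, not a measured binding site.

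Library identity bears on the Nacc results. Expression of 60 genes that differ between individuals tied most libraries to the same mouse number in every region, but 12 of the 41 Nacc libraries correlated with another mouse than their label (0.95 to 0.99, against −0.25 to 0.21 with their own number), and 0 libraries of the mPFC, BLA, DMT and vHipp did. In the ACC 1 library was marginally closer to another mouse (0.69 against 0.67). The 12 libraries and their best matches were the same 12 mice. Of these libraries, 7 matched a mouse of another condition, 8 a mouse of the other set, and 0 a mouse of the same condition and set. No library was relabelled, so Nacc groups below are groups as labelled, and the Nacc values that rest on the label are followed by those of the other 29 libraries. The levels and correlations over all 41 Nacc libraries do not use the mouse number. Total counts per library ranged from 20804247 to 43351424. Levels are in CPM, counts scaled to edgeR's effective library size (the library size multiplied by its TMM factor), not to the total count. The summed CPM of 6 striatal markers ranged from 969 to 3679 in the Nacc, of thalamic markers from 1447 to 2483 in the DMT and of cortical markers from 424 to 1421 in the BLA, where choroid plexus markers (mostly Ttr) also reached 5758 CPM.

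**Figure D1:**
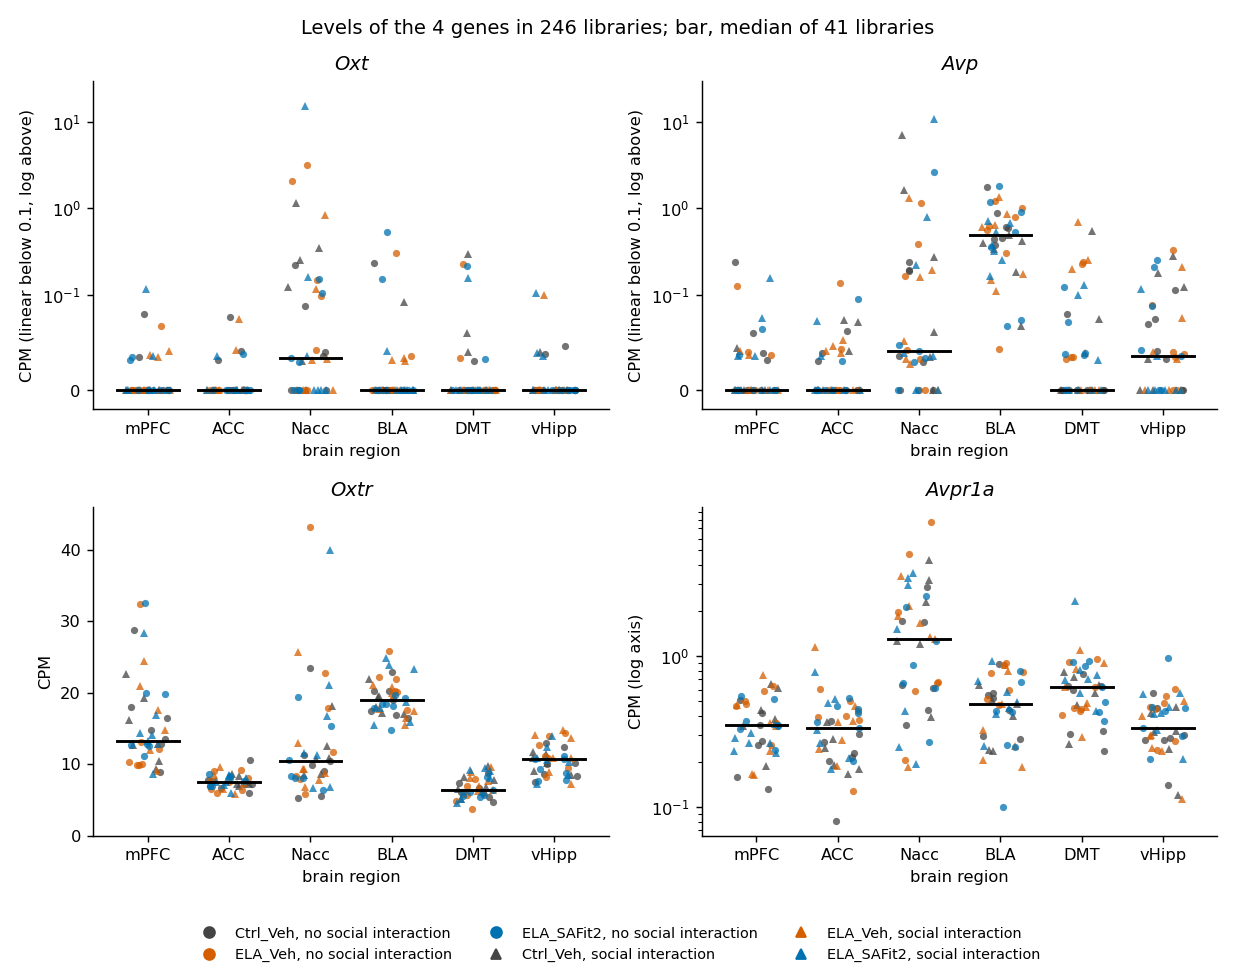
Levels of the 4 genes (y axis, CPM, with the axis scale named on each panel) by brain region (x axis) in all 41 libraries of each. Each point is 1 library, colour gives the condition, shape the set, and the bar is the median of 41 libraries. Oxt is at or near 0 in most libraries, with a few Nacc libraries reaching up to 15.5 CPM, while Oxtr is present in all libraries and highest in the BLA.

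The mRNA of oxytocin was close to absent outside the Nacc. Of all Oxt counts, 86.7% were in the Nacc. In the mPFC, 31 of 41 libraries held no Oxt count, and the highest was 0.115 CPM. In the ACC and vHipp 34 libraries each held none, and the highest levels were 0.0764 and 0.105 CPM. In the BLA and DMT 31 and 32 libraries held none, with maxima of 0.532 and 0.294 CPM. The floor of detection here was 3 counts, and a library at or under it says only that Oxt was not detectable at this depth. In tissue punches, fewer cells of a type and less RNA per cell cannot be told apart.

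In the Nacc itself, most libraries were also low. Oxt was at 0 in 16 of 41 libraries and at 3 counts or fewer in 29, with a median of 0.0339 CPM and a mean of 0.606 ± 2.46 CPM (SD, n = 41). A single library held 424 of the Nacc counts, or 59%. Only 7 Nacc libraries held at least 10 Oxt counts, so the mean and its SD are set by a few libraries.

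Vasopressin mRNA was found mainly in the Nacc and the BLA. Of 1661 Avp counts, 48.7% were in the Nacc and 38.6% in the BLA. In the BLA the gene was found in all 41 libraries, at 0.572 ± 0.430 CPM (SD, n = 41; 0.0432 to 1.83), with 1 to 55 counts a library and a median of 14. In the Nacc the mean was similar, 0.683 ± 2.01 CPM, but the median was 0.0411 CPM and 10 libraries held none. Avp was at 3 counts or fewer in 5 of 41 BLA libraries and in 25 of 41 Nacc libraries. The BLA level was thus spread over most animals, and the Nacc level over few. In the mPFC and ACC 25 libraries each held no Avp count, in the DMT 21 and in the vHipp 16. Avp stood above 3 counts in 8 DMT libraries (up to 19 counts, 0.688 CPM), 6 vHipp libraries (up to 9 counts), 2 mPFC libraries and 1 ACC library.

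Regions were compared with edgeR's quasi-likelihood test, each against the mean of the other 5, with Benjamini-Hochberg adjustment over 17381 genes. Of 24 tests on the 4 genes, 15 passed. Regional differences were common in these data: the share of all genes that passed was 84.2% for the DMT, 76.7% for the vHipp, 75.5% for the Nacc, 73.0% for the ACC, 72.8% for the BLA and 71.9% for the mPFC, so a pass by itself sets none of the 4 genes apart. Avp was higher in the BLA (log2 difference 3.07, SE 0.26) and in the Nacc (2.70), and lower in the mPFC (−2.25) and ACC (−2.14). For Avp, the Nacc and BLA did not differ from each other by this test (log2 −0.30, adjusted p = 0.388), nor did the DMT and vHipp (−0.03, adjusted p = 0.925). Oxt passed for the Nacc, and its levels above stand in place of a fold because several groups of the other regions held no count. The call of Oxt in the Nacc held when the library with the most Oxt and Avp was left out of each region, and when the 12 libraries that matched another mouse were left out. Without those 12, the Nacc differences of Avp, Avpr1a and Oxtr were 2.54, 1.88 and 0.34, and each passed. With the mouse number as a block, edgeR also called Oxt in the ACC (adjusted p = 0.0080) and vHipp (adjusted p = 0.0261), where the main fit gave adjusted p = 1.0 in each. Every library of these regions held 3 Oxt counts or fewer, so no fold is given. The block ties the 12 mismatched Nacc libraries to other mice, and without them it gave the same pair of calls (adjusted p = 0.0079 and 0.0290).

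The oxytocin receptor was measured in every library and had a clear regional order. Against the other 5 regions it was higher in the BLA (log2 0.92, adjusted p = 2.82e-28), mPFC (0.56) and Nacc (0.21, adjusted p = 0.0076), lower in the DMT (−0.89) and ACC (−0.69), and did not pass in the vHipp (−0.12, adjusted p = 0.144). Oxtr stood at 19.3 ± 2.60 CPM in the BLA (SD, n = 41; 14.8 to 25.8), 15.7 ± 6.29 in the mPFC (8.59 to 32.6) and 12.99 ± 8.35 in the Nacc (5.27 to 43.1). It stood at 10.5 ± 2.12 CPM in the vHipp (7.18 to 14.7), 7.60 ± 1.02 in the ACC (5.88 to 10.6) and 6.78 ± 1.53 in the DMT (3.65 to 9.67). The spread between animals was small in the ACC, BLA, vHipp and DMT and wide in the mPFC and Nacc. In this order each region differed from the next (BLA over mPFC, mPFC over Nacc, Nacc over vHipp, vHipp over ACC; adjusted p at most 0.0077) except ACC and DMT (log2 0.17, adjusted p = 0.114). That fit did not pair regions by mouse, and Oxtr was higher in the ACC than in the DMT in 31 of 41 mice. Every mouse had more Oxtr in the BLA than in the ACC, DMT and vHipp, and more in the mPFC than in the ACC (41 of 41 each). The Oxtr level in the mPFC exceeded that in the DMT in 41 of 41 mice, and the vHipp exceeded the DMT in 40. The Nacc level exceeded that of the vHipp in only 21 of 41 mice as labelled and in 16 of 29 without the mismatched libraries, and the medians were 10.5 and 10.7 CPM, so their order turns on the high Nacc libraries.

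The vasopressin receptor Avpr1a was low and had another peak. Its mean was 1.70 ± 1.54 CPM in the Nacc (SD, n = 41; 0.185 to 7.72), against 0.651 ± 0.340 in the DMT, 0.508 ± 0.228 in the BLA and 0.355 ± 0.191 to 0.377 ± 0.160 in the ACC, mPFC and vHipp. Against the other 5 regions, Avpr1a was higher in the Nacc (log2 1.94, SE 0.12, adjusted p = 6.21e-40) and the DMT (0.29, adjusted p = 0.0385) and lower in the ACC, mPFC and vHipp (−0.78, −0.66 and −0.65). The BLA did not pass (−0.14, adjusted p = 0.374). Neighbours in this order that did not differ by the test were DMT and BLA (adjusted p = 0.0531) and the ACC, mPFC and vHipp among themselves (adjusted p 0.625 to 0.962). The test did not pair regions by mouse, and the BLA was lower than the DMT in 27 of 41 mice.

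Per kilobase of exon, which allows genes to be set beside each other, mean Oxtr ranged from 1.42 CPM per kb in the DMT to 4.02 in the BLA, and mean Avpr1a from 0.133 in the ACC to 0.638 in the Nacc. The mean Oxt level in the Nacc was 1.13 CPM per kb and the mean Avp level 1.18 there and 0.991 in the BLA. The Nacc means of both peptides are set by a few libraries, and their medians were 0.0631 for Oxt and 0.0713 for Avp. Median Avpr1a in the Nacc was 0.484 CPM per kb, and median Avp in the BLA 0.861. Length sums all exons of a gene and the estimates do not correct it between isoforms.

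The high Nacc libraries were examined against other hypothalamic genes, a list of 19 that encode hypothalamic peptides (such as Pomc, Trh, Gnrh1 and Hcrt) and transcription factors (such as Sim1 and Otp, both needed for neuroendocrine neurons of the paraventricular nucleus). The highest Oxt level was 15.5 CPM (424 counts) in 1 library labelled ELA_SAFit2 of the social set, with Avp at 10.8 CPM and the list summing to 20.84 CPM, the 4th highest of 41. ELA_Veh mouse 43 of the other set followed with 3.17 CPM Oxt and the highest list sum, 27.6 CPM. The library labelled ELA_Veh mouse 69 held 2.09 CPM Oxt with a sum of 27.5 CPM, the 2nd highest, and Ctrl_Veh mouse 49 of the social set held 1.17 CPM Oxt with the 3rd highest, 21.04 CPM. The other 37 libraries summed to 6.01 to 17.1 CPM (median 11.2), and their Oxt reached 0.829 CPM. The 4 highest Oxt libraries were thus the 4 with the highest list sum, but for mouse 49 this rests on Pomc alone: without that gene its sum was 8.41 CPM and ranked 31st, under the median of 9.84 CPM, while the others stayed the 3 highest at 19.7 to 26.3 CPM.

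Most of the list sum in the Nacc came from genes that are not particular to the hypothalamus. Nkx2-1, a transcription factor also of the ventral telencephalon, gave 41.9% of the summed CPM over the 41 libraries, and Trh, the thyrotropin-releasing hormone gene, 31.1%. Nkx2-1 followed the list of basal forebrain cholinergic markers (r = 0.92, rho 0.91, 0.90 without the 2 libraries farthest from the median). Without Nkx2-1 and Trh the same 4 libraries had the highest sums, at 5.73 to 13.7 CPM against at most 5.11 in the other 37, and without Pomc as well mouse 49 ranked 28th.

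The list members did not move alike in these 4 libraries. Sim1 ranked 1st, 3rd, 2nd and 4th in them (0.803 CPM in the library labelled ELA_SAFit2, then 0.083, 0.331 and 0.078 in mice 43, 69 and 49), where the other 37 libraries reached at most 0.0746 CPM. Otp stood at 0.730, 0.223, 0.596 and 0.156 CPM in the same order, with a maximum of 0.199 in the others. In mice 43 and 49 Sim1 was at or under the floor of 3 counts, so its ranks there are of levels that were not detectable. Pomc, the precursor of melanocortins, was high only in mouse 49, at 12.6 CPM, against at most 1.86 in the other 37. Gnrh1, the gonadotropin-releasing hormone gene, was high in mice 43 and 69, at 3.20 and 2.25 CPM, and stood at 0.402 CPM in the library labelled ELA_SAFit2 and 0.234 in mouse 49. Avp did not need a high list sum: ELA_SAFit2 mouse 47 without social interaction held 2.64 CPM Avp with a sum of 11.9 CPM, the 17th highest. The library with the most Oxt, labelled ELA_SAFit2 with social interaction, matched mouse 69, which is ELA_Veh without it (r = 0.99, against −0.25 with its own number), and the Nacc library labelled mouse 69 matched mouse 61, ELA_Veh with social interaction (0.95 against 0.21). What the high list sums owe to the tissue taken in a punch was not tested.

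**Figure D2:**
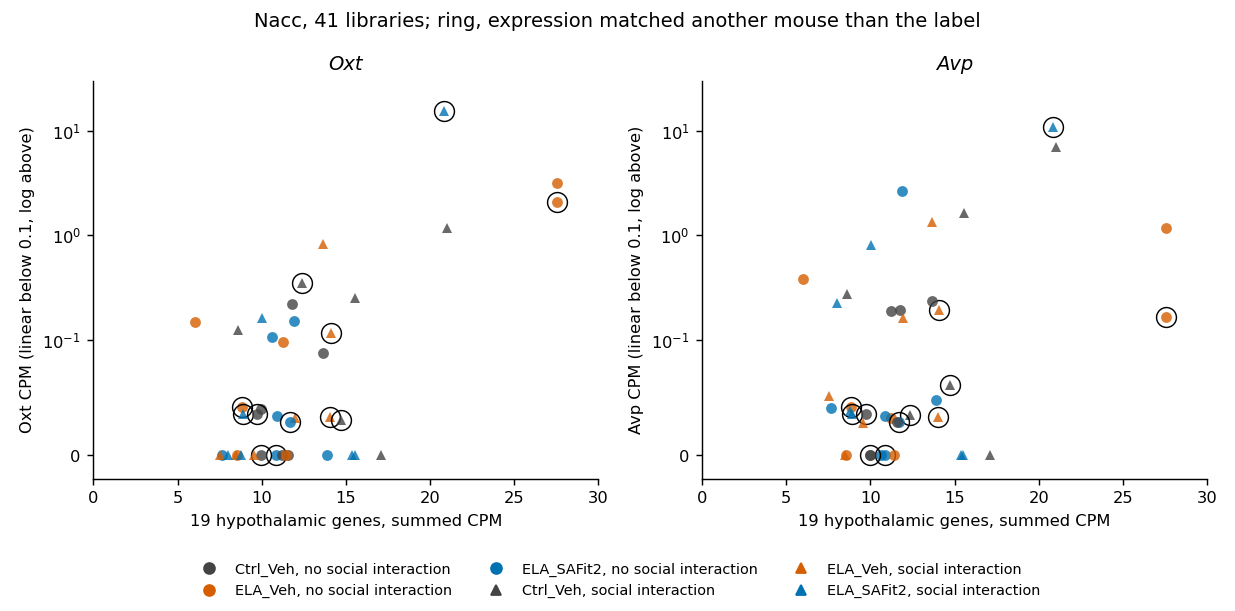
Oxt (left) and Avp (right) in the 41 Nacc libraries (y axis, CPM, linear below 0.1 and log above) against the summed CPM of 19 hypothalamic genes (x axis). Colour gives condition, shape the set, and a ring marks the 12 libraries whose expression matched another mouse. The 4 libraries with sums of 20.84 to 27.6 CPM are the 4 highest for Oxt, while Avp also reached 2.64 CPM in a library with a sum of 11.9 CPM.

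Across the 41 libraries of the Nacc, Oxt and Avp levels correlated with Pearson r = 0.76 (Spearman rho 0.67), and r = 0.51 without the 2 libraries farthest from the median. Oxt correlated less with the summed hypothalamic peptides (r = 0.60, rho 0.32, 0.50 without 2 libraries) and factors (0.52, rho 0.31, 0.34). By the rule of highest correlation over 15881 genes in the Nacc, the genes most like Oxt were Otp (r = 0.81, rho 0.42, r = 0.68 without 2 libraries), the neuropeptide gene Gal (0.80, 0.21, 0.62) and Avp. Next came Onecut3 (0.74, 0.30, 0.53) and Sdf2 (0.73, 0.53, 0.62), the latter at 23.3 to 32.9 CPM. Avp in the Nacc was most like Oxt, Otp, Ifi202b, Piwil2 and Wipf1 (r from 0.53 to 0.76). Oxtr in the BLA was most like Cdip1, Ap3s2, Copg1, Cdkn2d and Susd4 (r from 0.63 to 0.69). For Avp in the BLA the most similar was Gal (0.87, rho 0.88, 0.88 without 2 libraries) over 15992 genes, followed by Pnoc, Irs4, Ankrd55 and Asb4 (r from 0.70 to 0.73). In the BLA, Avp also correlated with Avpr1a (r = 0.65, rho 0.64, 0.63 without 2 libraries).

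Levels of both receptors moved with marker lists of neighbouring tissue in the Nacc. Oxtr followed a list of cortical markers (r = 0.68, rho 0.71, 0.75 without 2 libraries), of which Slc17a7 encodes a vesicular glutamate transporter, and ran opposite to a basal forebrain cholinergic list (−0.67, rho −0.55, −0.48). Its highest levels were 43.1 CPM in ELA_Veh mouse 99 without social interaction, where the cortical list summed to 1336 CPM, and 40.0 CPM in ELA_SAFit2 mouse 95 of the social set, at 1206 CPM, against 78.6 CPM in the library lowest for the list. Avpr1a followed the cholinergic list (r = 0.90, rho 0.94, 0.93) and ran opposite to the cortical one (−0.77, rho −0.78, −0.78). It reached 7.72 CPM in the library labelled mouse 69, with a cholinergic sum of 262 CPM, and 4.76 CPM in mouse 43, with 195 CPM. The genes most like Avpr1a in the Nacc were Gbx1 and Lhx6 (r = 0.97 each), followed by Stk32b, Agt and Etnppl (0.96 each). Lhx6 is a transcription factor of interneurons and basal forebrain neurons. Both lists were chosen as markers of neighbouring tissue, and their part in the receptor levels was not tested.

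**Figure D3:**
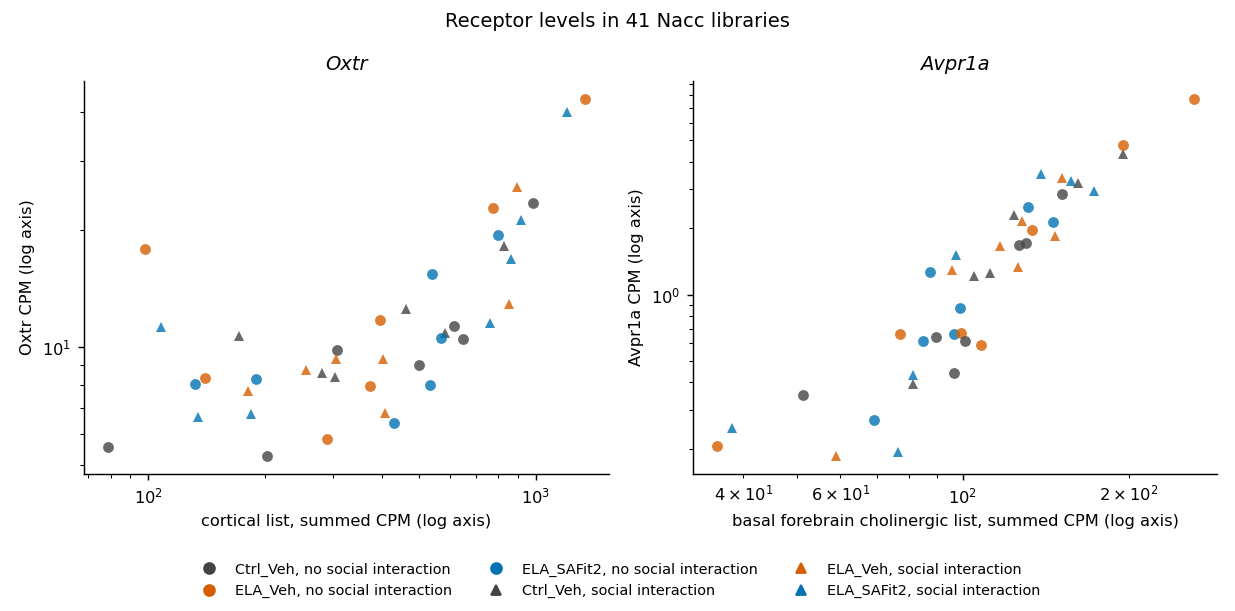
Oxtr against the summed CPM of the cortical list (left) and Avpr1a against the summed CPM of the basal forebrain cholinergic list (right) in the 41 Nacc libraries, all axes in CPM on log scales. Colour gives condition and shape the set. Oxtr rises with the cortical list up to 43.1 CPM at 1336 CPM, and Avpr1a with the cholinergic list up to 7.72 CPM at 262 CPM, with mice of every condition along both trends.

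In the mPFC, Oxtr ran opposite to the cortical list there (r = −0.69, rho −0.64, −0.68 without 2 libraries) and with a lateral septum list (0.65, rho 0.62, 0.64). The septum list does not mark septal tissue alone: its median sum was 34.6 CPM in the mPFC and 546 CPM in the DMT, where Zic1 gave 99.2%. In the BLA, Avpr1a ran with the hypothalamic transcription factors (r = 0.70, rho 0.67, 0.64) and opposite to the cortical list (−0.67, rho −0.71, −0.63). Nkx2-1, which is not particular to the hypothalamus, gave 78.2% of that factor sum in the BLA. Each of these correlations is across 41 libraries of 1 region that share depth and dissection, and describes these libraries.

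None of the 4 genes differed between conditions after adjustment. Over 90 comparisons (the 3 pairs of conditions, in each set, in every region where a gene passed the filter on low counts) edgeR called 0, against 0.000526% of all tests across genes (at most 0.00632% of genes in an mPFC comparison and 0.00636% in a vHipp one), and DESeq2 also called 0. At an unadjusted p under 0.05 there were 11 of the 90, and 4.38% of all gene tests passed that mark. The smallest adjusted p was 0.357. Where a gene passed the filter, the groups of at most 7 mice overlapped in all 90 pairs, and 0.0572% of such pairs over all genes did not overlap. Oxt entered this test in the Nacc only and Avp in the Nacc and BLA, since they did not pass the filter elsewhere, while both receptors entered it in all 6 regions.

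**Figure D4:**
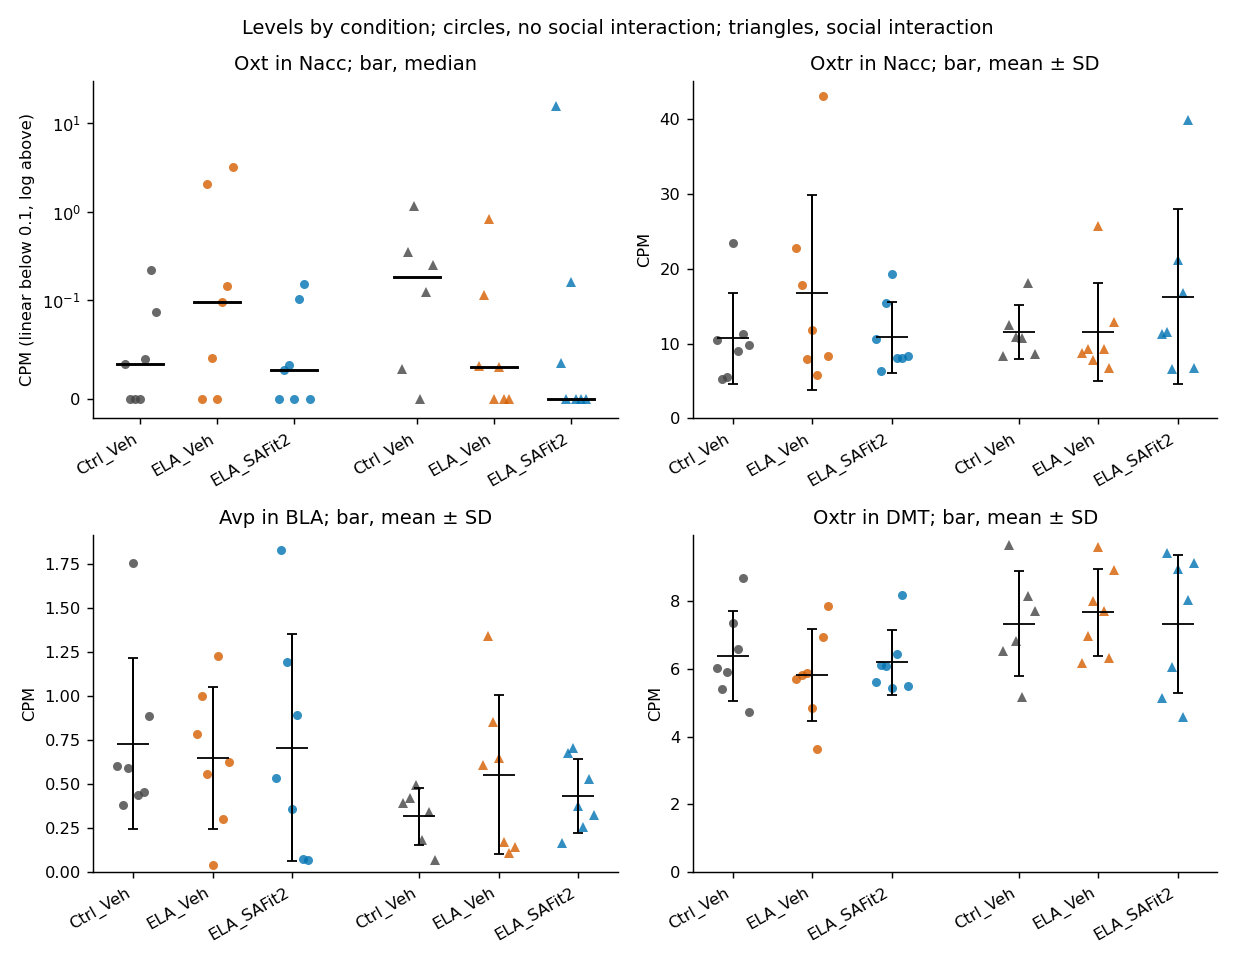
CPM of Oxt in the Nacc, Oxtr in the Nacc, Avp in the BLA and Oxtr in the DMT (y axes, from 0, with the scale named on each) by condition (x axis), circles without and triangles with social interaction. The bar is the median for Oxt and mean ± SD for the others. Groups overlap in every panel, and 1 Oxt library labelled ELA_SAFit2 with social interaction stands at 15.5 CPM.

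In the Nacc without social interaction, Oxt was 0.0550 ± 0.0800 CPM in Ctrl_Veh (n = 7; 0 to 0.221, median 0.0355), 0.792 ± 1.29 in ELA_Veh (0 to 3.17, median 0.0980) and 0.0456 ± 0.0597 in ELA_SAFit2 (0 to 0.152, median 0.0291). With social interaction it was 0.320 ± 0.436 CPM in Ctrl_Veh (n = 6; 0 to 1.17), 0.144 ± 0.305 in ELA_Veh (0 to 0.829) and 2.24 ± 5.84 in ELA_SAFit2 (0 to 15.5, median 0). The groups overlapped, the highest mean belonged to ELA_Veh in one set and to ELA_SAFit2 in the other as labelled, and the ELA_Veh mean rests on the libraries of mice 69 and 43. Without the 12 mismatched libraries the means were 0.0700 ± 0.0920, 0.683 ± 1.39 and 0.0581 ± 0.0676 CPM without social interaction (n = 5 each), in the same order. With it they were 0.385 ± 0.532 (n = 4), 0.172 ± 0.367 and 0.0319 ± 0.0713 CPM (n = 5 each), so ELA_SAFit2 was then the lowest of its set. For ELA_Veh against Ctrl_Veh without social interaction, the log2 difference was 3.66 (SE 1.497, adjusted p = 0.605), and 3.17 without the 12 mismatched libraries. It was 0.03 without the libraries over 1.5 times the regional median of the hypothalamic list, a step chosen after the data were seen. That step drops mice 69 and 43, the highest of this ELA_Veh group for Oxt, so the fall was partly set by the choice of libraries. For ELA_SAFit2 against ELA_Veh the log2 difference was −4.01 (SE 1.56, adjusted p = 0.357), then −3.53 and −0.37 after the same steps. The difference of that contrast between sets was 8.12 (SE 2.05, adjusted p = 0.367), and fell to 2.06 without the library with the highest sum of Oxt and Avp and 1.30 without the mismatched ones. These Nacc values of Oxt, Oxtr and Avpr1a without social interaction had been examined in earlier work on these data, and are no independent evidence.

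Avp in the Nacc showed 1 high library per group in several groups. In the social set, ELA_SAFit2 against ELA_Veh gave a log2 difference of 2.85 (adjusted p = 0.999), and −0.45 without the mismatched libraries and −0.39 without the library highest for Oxt. The Ctrl_Veh group of that set held 1.51 ± 2.79 CPM (n = 6), with a highest value of 7.05 CPM, and the ELA_SAFit2 group 1.70 ± 4.04 CPM, with 10.8 CPM in 1 library. Without the mismatched libraries these were 2.23 ± 3.29 (n = 4) and 0.212 ± 0.340 CPM (n = 5). In the BLA, Avp without social interaction was 0.731 ± 0.484 CPM in Ctrl_Veh, 0.650 ± 0.404 in ELA_Veh and 0.708 ± 0.645 in ELA_SAFit2 (n = 7 each). With social interaction it was 0.317 ± 0.161 CPM in Ctrl_Veh (n = 6), 0.554 ± 0.454 in ELA_Veh and 0.433 ± 0.209 in ELA_SAFit2 (n = 7 each), so the order of the conditions differed between the sets.

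Oxtr had no condition effect past adjustment, with intervals that were narrow in the ACC and BLA and wide in the Nacc and mPFC. In the ACC, the 95% interval of the log2 difference lay within −0.23 and 0.23 for each pair of conditions in either set. In the Nacc the means without social interaction were 10.7 ± 6.07 CPM in Ctrl_Veh, 16.8 ± 13.1 in ELA_Veh (5.85 to 43.1, median 11.8) and 10.9 ± 4.75 in ELA_SAFit2 (n = 7 each), and without the mismatched libraries 11.8 ± 6.80, 18.4 ± 15.3 and 11.8 ± 5.26 CPM (n = 5 each). The log2 difference between ELA_Veh and Ctrl_Veh was 0.65 (SE 0.40, adjusted p = 0.645; 0.63 without the mismatched libraries), and between ELA_SAFit2 and ELA_Veh −0.64 (adjusted p = 0.538; −0.65). In these groups the cortical list summed to 78.6 to 985 CPM (median 498), 98.4 to 1336 CPM (median 374) and 132 to 800 CPM (median 534). In the BLA ELA_SAFit2 against ELA_Veh without social interaction gave −0.21 (SE 0.10, unadjusted p = 0.0383 and adjusted p = 1.0 by edgeR).

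Avpr1a rested on few counts, 2 to 27 per library in the ACC. There, Ctrl_Veh held 0.239 ± 0.0919 CPM (n = 7; 0.0813 to 0.374), ELA_Veh 0.407 ± 0.147 and ELA_SAFit2 0.394 ± 0.105 without social interaction. With social interaction the levels were 0.239 ± 0.0772 (n = 6), 0.437 ± 0.326 (median 0.368, up to 1.15) and 0.397 ± 0.215 CPM. ELA_Veh against Ctrl_Veh gave 0.76 (SE 0.35, adjusted p = 0.949) and 0.87 (SE 0.37, adjusted p = 0.358), and the latter was 0.41 without the ACC libraries over 1.5 times the regional median of the hypothalamic list. In the mPFC the same contrast was 0.65 (SE 0.29, adjusted p = 0.971) without social interaction, but −0.26 (SE 0.31, adjusted p = 0.941) with it. The difference between the sets was −0.91 (SE 0.42, adjusted p = 0.837). In the Nacc ELA_Veh against Ctrl_Veh without social interaction gave 0.98, 0.22 without the mismatched libraries and −0.55 without the libraries over 1.5 times the hypothalamic median. That last step drops the libraries labelled ELA_Veh mice 69 and 43, the highest of the Nacc for Avpr1a. The change of sign was thus partly set by the choice of libraries. The cholinergic list summed to 51.2 to 151 CPM in those Ctrl_Veh mice and 35.8 to 262 CPM in those ELA_Veh mice.

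**Figure D5:**
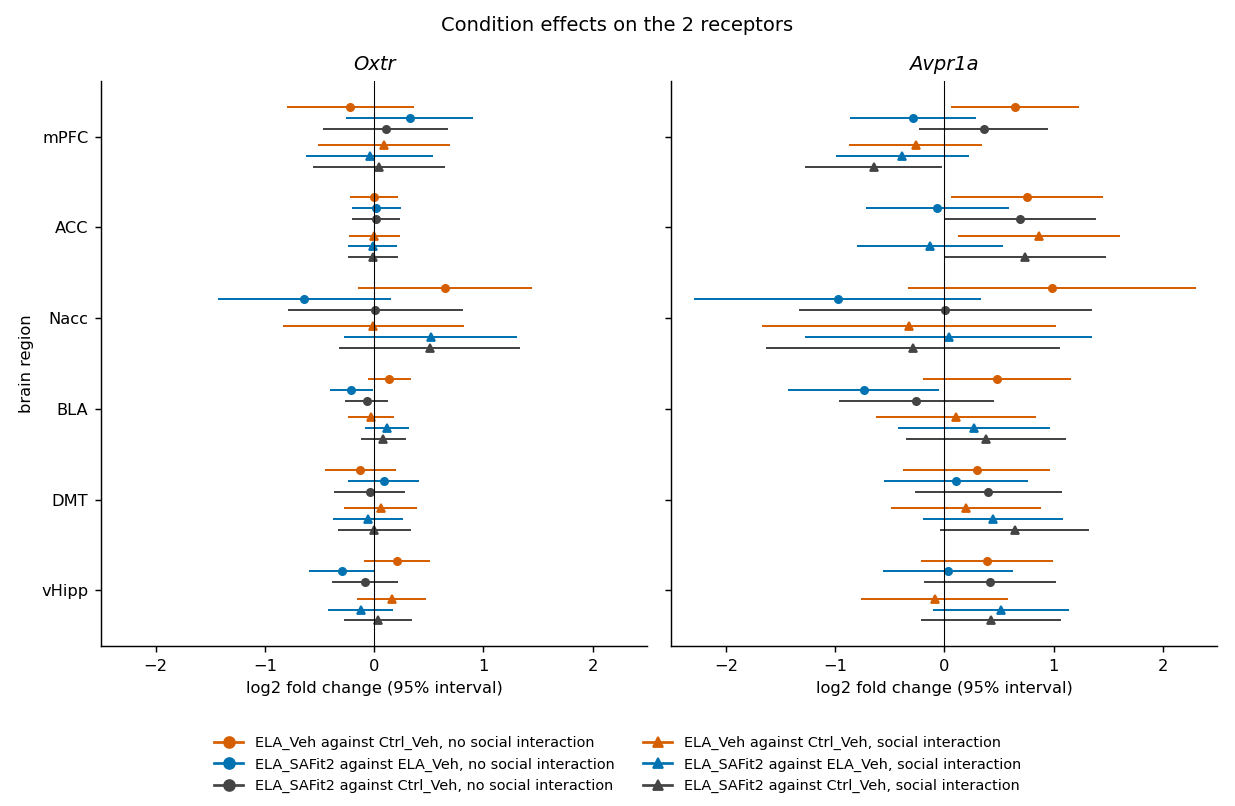
Log2 fold changes of Oxtr (left) and Avpr1a (right) between conditions by region (y axis), with approximate 95% intervals derived from edgeR's F statistic. Circles are without and triangles with social interaction, and colour gives the pair of conditions. Intervals are narrow for Oxtr in the BLA and ACC (within −0.23 and 0.23 in the latter) and widest for Avpr1a in the Nacc.

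Social interaction against none, pooled over conditions, passed for 0 of 15 tests on the 4 genes in edgeR and DESeq2, with 3 at an unadjusted p under 0.05, a mark that 13.2% of all gene tests passed. Across all genes 7.4% passed in the mPFC and 4.15% in the ACC, while the DMT gave 1.6%, the BLA 1.49%, the vHipp 1.21% and the Nacc 0.0%. Oxtr in the DMT came nearest, at 6.14 ± 1.19 CPM in 21 mice without and 7.46 ± 1.57 CPM in 20 with social interaction (ranges 3.65 to 8.70 and 4.59 to 9.67). The log2 difference was 0.28 (SE 0.09, adjusted p = 0.130), from 0.25 to 0.29 with adjusted p 0.0821 to 0.287 over the alternatives. Avp in the BLA was 0.696 ± 0.495 CPM without (n = 21) and 0.441 ± 0.309 CPM with it (n = 20), a log2 difference of −0.71 (SE 0.33, adjusted p = 0.306). In that same BLA comparison Sim1 (−2.79) and Otp (−1.94) passed at adjusted p = 0.024 and 0.029. The difference of condition effects between the sets passed for 0 of 45 tests in edgeR and DESeq2, against 0.00772% of all tests (for ELA_SAFit2 against ELA_Veh, 0.0382% of vHipp genes, 0.0379% of DMT genes, 0.0318% of ACC genes and 0.0315% of Nacc genes), with 7 at an unadjusted p under 0.05 against 3.97% of all gene tests. Counts summed over the 6 regions of a mouse as labelled passed for 0 of 12 tests in edgeR, with 0 at an unadjusted p under 0.05, where 0.00192% and 5.52% of all gene tests passed. Summed over the 5 regions other than the Nacc, 0 of 12 passed and 2 had an unadjusted p under 0.05, Avpr1a in ELA_Veh and in ELA_SAFit2 against Ctrl_Veh (log2 0.35 each, SE 0.11, adjusted p = 0.531 and 0.547). The 95% interval of the Oxtr log2 difference between ELA_Veh and Ctrl_Veh was −0.11 to 0.27 with the Nacc and −0.13 to 0.18 without it.

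The other genes of the pathway were taken from a list of 24 chosen by role (the receptors Avpr1b and Avpr2, precursor processing, release and breakdown, Gq signalling and steroid receptors). They gave 0 calls in 804 condition tests, with 44 at an unadjusted p under 0.05 where 4.38% of all gene tests passed that mark, and 0 in 402 tests of the difference between sets. For social interaction 3 of 134 tests passed, all 3 upward, where 2.64% of all gene tests passed, so these calls do not set the pathway apart. Pcsk1, the prohormone convertase that cuts peptide precursors, rose in the mPFC (log2 0.29, SE 0.05, adjusted p = 3.84e-05) and the ACC (0.20, adjusted p = 0.0352). Plcb1, a phospholipase C that acts downstream of Gq, rose in the DMT (0.18, adjusted p = 0.0317). Between regions 67 of 138 tests passed upward and 58 downward, in data where most genes passed. The vasopressin receptor Avpr1b was highest in the vHipp (log2 2.44 against the other regions) and the BLA (1.89), and the kidney receptor Avpr2 held no count in most libraries. Cd38, needed for oxytocin release, was highest in the vHipp at 7.20 ± 1.05 CPM (n = 41). Lnpep, which degrades oxytocin, was spread evenly, from 131 CPM in the Nacc to 162 CPM in the vHipp on average. Esr1, the estrogen receptor, was highest in the BLA at 6.38 ± 1.61 CPM (n = 41).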

How the data were processed

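Poly-A RNA from tissue punches of 41 mice was sequenced with a stranded kit, and RNA was selected by integrity. The deposited table holds estimated counts per gene, which the authors made before deposit: the submitters' processing notes name STAR, DESeq2 and the build GRCm39 (mm39), the name of the table points to salmon, and which tool aligned and which counted is not given in the sources used here. DESeq2 served the study for its tests between conditions. In all, 12.1% of values were not whole, and counts were rounded. CPM were computed from edgeR's effective library size, which is the library size multiplied by its TMM factor. The total count of each library (20804247 to 43351424) was not the divisor. Intervals cover counting error and the spread between these mice only.

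Tests used edgeR 4.0.16 in R 4.3.3 (quasi-likelihood, TMM) on genes that code for protein, whose counts summed to 100 or more and were above 0 in 6 or more libraries, with gene types from GENCODE for 52073 of 56691 IDs and from RefSeq symbols for 978. Each region was fitted with 6 groups in 1 model, and regions were compared in a model of 36 groups without a mouse term. P-values were adjusted by Benjamini-Hochberg over all tested genes, with a threshold of 0.05. Oxt passed the filter in 1 region, Avp in 2, and Oxtr and Avpr1a in 6. DESeq2 1.42.0 was an alternative. On counts simulated for ELA_Veh against Ctrl_Veh without social interaction in the BLA (15992 genes), 90% of 200 genes changed by 1.5 on the log2 scale were recovered with 6 false calls. The changed genes were drawn at random from all levels, with BLA dispersions. The rate therefore does not give the power for these 4 genes, for other regions or for smaller differences.

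Groups came from the labels, and 0 columns lacked a sample. The mouse number in the labels is shared by the 6 regions of a mouse, so regions were paired by animal as labelled. For 12 Nacc libraries that number goes with another mouse by expression, so the block, the order within mice and the sums over 6 regions join libraries of different mice there, and each was also computed without them or without the Nacc. Deviations from group means correlated with a median of 0.10 to 0.39 between regions of a mouse, at the lowest −0.36. Named genes are the 4 members, the 24 pathway genes that passed a test, genes most correlated with a member, and the hypothalamic list. The members and lists were chosen with earlier results of these data known. Promoter letters come from the RefSeq table of GRCm38.p6, and no gene coordinates of that build were set beside the counts.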

Additional observations from a re-analysis of the deposited data

Results flagged for a closer look

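The level of 1 library stood far from the other mice of its group, by the gap to its neighbour relative to the whole range, in 15 of 91 groups examined. The rule flags about 1 in 20 groups of normal values by chance, but over all protein-coding genes of these libraries it flagged 7.81% of groups, and 38.2% of those with a median of 3 counts or fewer. Of the 15, 8 were among the 11 groups with such low medians and 7 among the other 80. All flags are CPM levels of single libraries and no cause was tested.

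Most flags concern the peptides. In the Nacc of the social set, Oxt reached 15.5 in 1 library labelled ELA_SAFit2 (next 0.159), which matched an ELA_Veh mouse of the other set, and 0.829 in 1 ELA_Veh mouse (next 0.115). Avp reached 10.8 in the same library (next 0.797) and 1.33 in the same ELA_Veh mouse (next 0.192), so each of these libraries stood apart for both peptides. In ELA_SAFit2 mouse 47 without social interaction, Nacc Avp was 2.64 (next 0.0477) while Oxt in that library was 0.152. In the BLA without social interaction, Oxt was 0.302 in ELA_Veh mouse 5 (next 0.0358) and 0.532 in ELA_SAFit2 mouse 39 (next 0.149). Avp in the DMT was 0.541 in Ctrl_Veh mouse 89 of the social set (next 0.0741).

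For the receptors, Oxtr in the mPFC was 32.5 in ELA_Veh mouse 43 without social interaction (next 13.1), the mouse with the 2nd highest Nacc Oxt. In the same set 1 ELA_SAFit2 mouse was low for Oxtr in the BLA (14.8, next 17.9), and ELA_SAFit2 mouse 47 high in the DMT (8.20, next 6.44). Avpr1a in the ACC was low in ELA_Veh mouse 99 without social interaction (0.128, next 0.376) and high in ELA_Veh mouse 61 with it (1.15, next 0.465). In the DMT it was 2.31 in ELA_SAFit2 mouse 23 of the social set (next 0.811), and in the vHipp 0.969 in ELA_SAFit2 mouse 71 (next 0.463).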

How the results depend on the processing

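For the 4 genes, 0 of the condition, social and between-set tests passed under every alternative run, and region comparisons gave 15 calls in each setting except 17 with the replicate block, 17 with that block and without the mismatched libraries, and 17 with regions as 6 groups, the last 2 chosen after seeing the data. Each of these added Oxt in the ACC and vHipp (for regions as 6 groups, adjusted p = 0.0117 and 0.0237), where every library held 3 counts or fewer. The block, which pairs regions by mouse as labelled, changed no other call. Over all genes, the 3 condition calls became 122 with the DESeq2 test, 1 with all gene types, 5 without libraries over 3 times the hypothalamic median, 1 without the highest Oxt and Avp library and 1 with the sets fitted separately, and the cause was not tested. For 51 named member values, 413 alternative values kept direction and side of the threshold, 6 newly passed it and 18 reversed, and each reversal was on a difference that had not passed the test.

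Without libraries over 1.5 times the hypothalamic median (chosen after seeing the data), log2 differences in the Nacc became −0.55 (Avpr1a, ELA_Veh against Ctrl_Veh, no interaction), 0.55 (Avpr1a, ELA_SAFit2 against ELA_Veh, no interaction), −0.15 (Avpr1a, same contrast, social), −1.956 (Oxt, same), −0.39 (Avp, same), −2.48 (Oxt, ELA_SAFit2 against Ctrl_Veh, social) and −1.58 (Oxt, difference between sets). That step drops the Nacc libraries highest for Oxt and Avpr1a, so these shifts were partly set by the choice of libraries. Without the highest library the social values were −0.15, −1.95, −0.39 and −3.20, and without the mismatched libraries −2.23, −0.45 and −3.51 for the last 3 (Oxt, Avp, Oxt). Oxt against the other regions became −0.011 in the BLA and 0.11 in the DMT without the libraries over 1.5 times the median, 0.11 in the DMT without the highest library and 0.033 there with the replicate block. These Oxt values rest on few counts: outside the Nacc most libraries held 3 or fewer, as did 29 of 41 in the Nacc, and smaller differences were not detectable at this depth.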
